A study of Mus musculus with 28 samples.

Results

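Il13-deficient mice and mice lacking only Rag2 were compared after both had received syngeneic spleen cells. The 8 mice are all those of the series given balb/c cells in these 2 genotypes: 4 rag2-/- IL13-/- recipients (mice 6229, 6234, 6225 and 6230, the last written IL13/- in its label) and 4 rag2-/- recipients (mice 5700, 5702, 5703 and 6153). They account for 11 of the 28 arrays and 8 of the 24 mice of the series. All were on a balb background, all lacked Rag2, and all received balb/c splenocytes, which serve in the study as the control for mice given B10.D2 cells that develop chronic graft-versus-host disease. Skin was taken 2 weeks after transfer; ages and sexes are not given in these sources. The donor cells carry no label of Il13 deficiency. Total RNA from skin (Cy3) was set against a universal mouse reference RNA (Cy5) on 2-colour Agilent arrays. Each value is the log2 ratio of skin to reference, so a difference of 1 is a 2-fold difference, and the arrays of a mouse were averaged (mouse 5702 had 3 arrays and mouse 5703 had 2).

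Interleukin-13 is a type 2 cytokine made mainly by T helper 2 cells and innate lymphoid cells. It signals through a receptor that contains the Il4ra chain, drives alternative activation of macrophages, and is studied in skin for its part in fibrosis. Rag2 is needed to rearrange antigen receptor genes, so the recipients make no T or B cells of their own. Hair follicles pass through phases of growth, regression and rest. In growth, dividing matrix cells at the base give rise to the inner root sheath and to the hair shaft, which is built from hair keratins and the keratin-associated proteins that crosslink them.

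Mice 6229 and 6234 stood apart from the other 6 mice across the transcriptome. A principal component analysis used the 12793 genes with a value in each of the 8 mice. On its leading component, with 53.1% of the variance, they lay at 44.1 and 72.9. Mice 6225 and 6230 lay at -18.3 and -4.08, and the Rag2-only mice between -31.8 and -17.5. The share of probes without a value was 2.73% in mouse 6229 and 32.4% in mouse 6234, 18.0% and 19.6% in mice 6225 and 6230, and 9.89% to 34.0% in Rag2-only mice, so it did not separate these 2 mice from the rest. All Il13-deficient mice carry numbers of the 62 series, and the Rag2-only mice carry numbers of the 57 and 61 series. Whether a number series marks an experiment is not stated, and genotype and number series cannot be told apart. Repeat arrays of a mouse had correlations of 0.904 to 0.922 (4 pairs), and arrays of different mice within a group had 0.772 to 0.918 (23 pairs). Arrays of different genotypes had 0.727 to 0.9265 (28 pairs), so the ranges overlapped.

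Of 14783 genes tested, 42 passed an adjusted p of 0.05 (0.284%), with 19 higher (0.129%) and 23 lower (0.156%) in Il13-deficient than in Rag2-only skin. Genes of hair growth and pigment were among the 19, and genes of macrophages and of the interferon response were among the 23. The adjusted p of the 42 genes lay between 0.0249 and 0.0496, close to the threshold. At an unadjusted p under 0.05 there were 3006 genes (20.3%), 1239 of them higher and 1767 lower. After quantile normalization between arrays the calls were 3 higher and 2 lower. Of the 39 called genes measured in all 8 mice, 37 had groups that did not overlap, 16 higher and 21 lower. Over all 12719 tested genes measured in all 8 mice, 277 (2.18%) lay higher without overlap and 457 (3.59%) lower.

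The number of calls depended on single mice. Without mouse 6234, 5700 or 5703 the test called 0 genes, although 1543, 2233 and 2561 genes then had an unadjusted p under 0.05. Without mouse 6229 it called 1 gene, without 5702 it called 11, and without 6153 it called 30. Without mouse 6225 or 6230, the Il13-deficient mice nearer to the Rag2-only level, it called 1822 and 981 genes. Without both 6229 and 6234 it called 3 genes (0.0210%), Chil1, Fetub and Prss27, all higher; here Fetub and Prss27 are named because the count is small. Of the 41 called genes that could be fitted without these 2 mice, 1 kept its call and 38 had a smaller difference. All 41 kept their sign and had an unadjusted p under 0.05, beside 517 of 14299 genes (3.62%). The test had chosen the 41 with the same remaining mice in it, so this is a description and not a separate check.

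**Figure D1:**
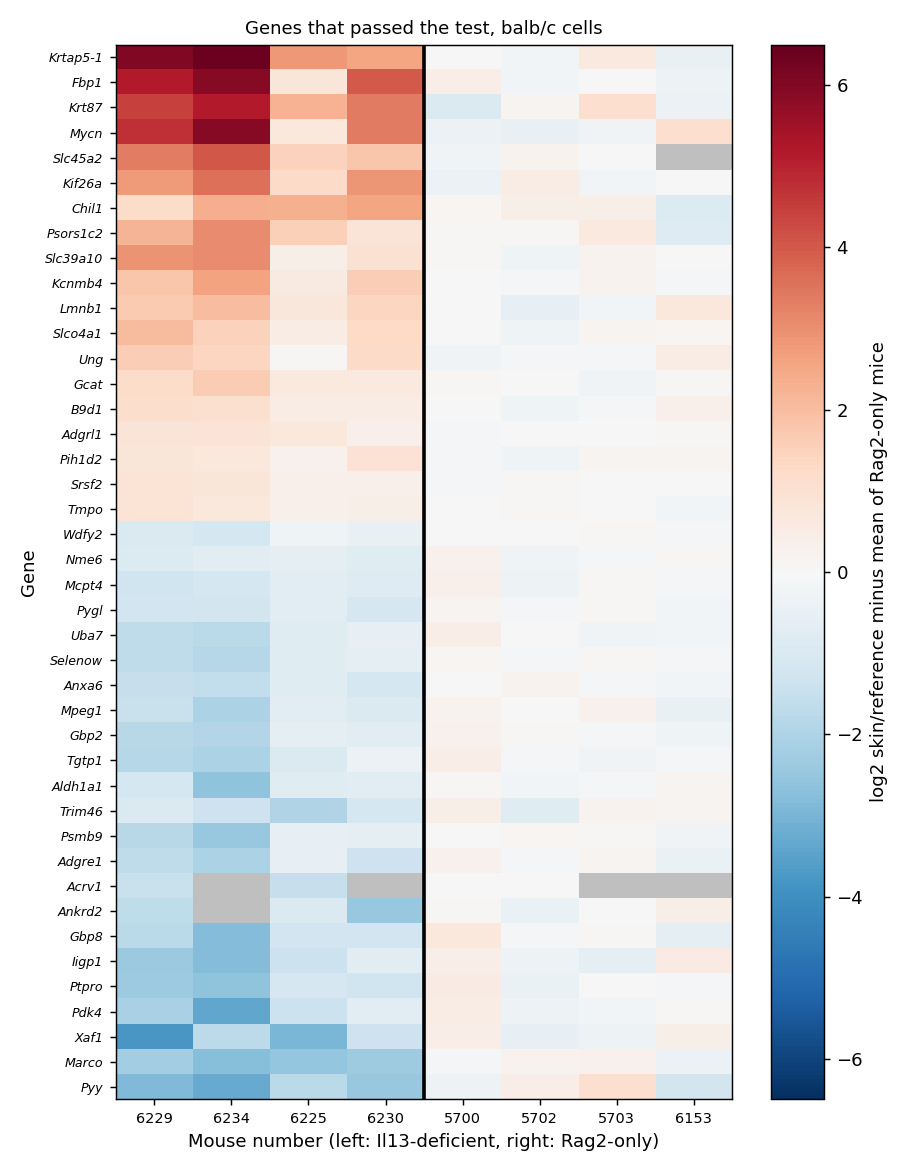
Rows are the 42 genes that passed the test, ordered by difference, and columns are the 8 mice, Il13-deficient at left and Rag2-only at right of the black line. Colour gives log2 skin/reference minus the mean of the Rag2-only mice, and grey marks a missing value. Mice 6229 and 6234 carry the strongest colours for most genes, whereas Marco, Chil1, Nme6 and Pygl are shifted in all 4 Il13-deficient mice.

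**Figure D2:**
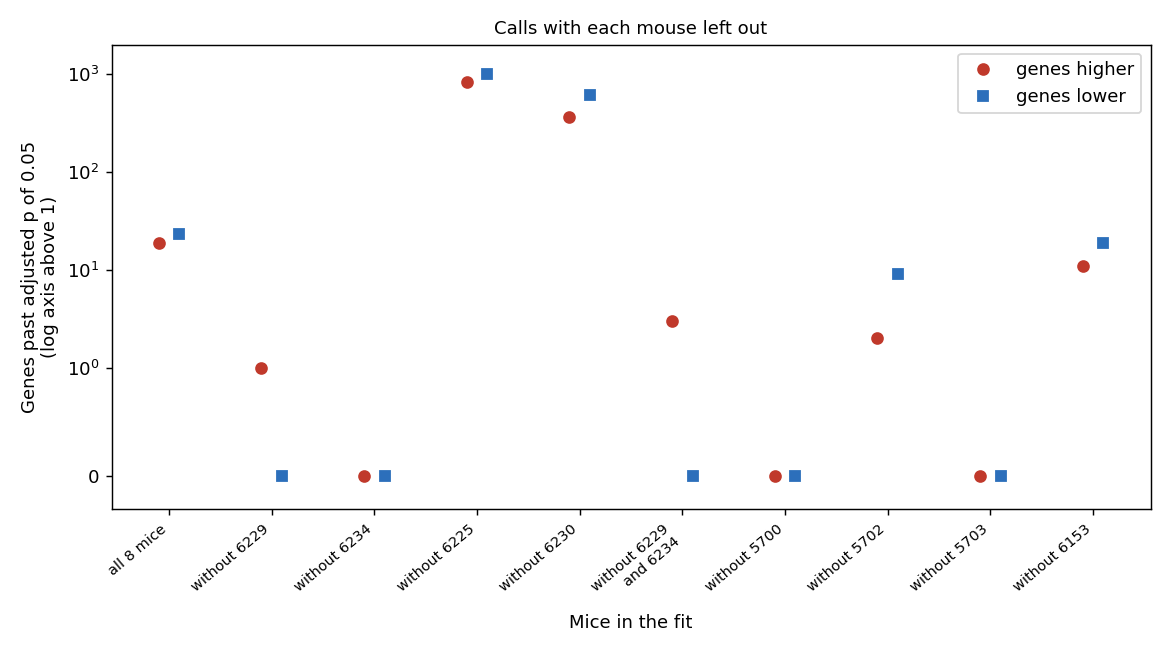
Number of genes higher (circles) and lower (squares) in Il13-deficient skin at an adjusted p of 0.05, with all 8 mice and with the mice named on the horizontal axis left out. The vertical axis is logarithmic above 1. The counts run between 0 and 992 per direction.

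Macrophage genes were among those lower in Il13-deficient skin. Marco, a scavenger receptor of macrophages, lay at -0.04, -0.54, -0.32 and -0.09 in Il13-deficient mice 6229, 6234, 6225 and 6230, against 2.10, 2.46, 2.47 and 1.81 in Rag2-only mice 5700, 5702, 5703 and 6153. The groups did not overlap, and the 4 Il13-deficient mice lay close together. The difference was -2.46 (SE 0.47, adjusted p = 0.0381), and it was -2.42 without mice 6229 and 6234. With dim values shared by at least 30 probes taken as missing, Marco had too few values for the test. Adgre1, which encodes a surface receptor widely used to mark mouse macrophages, lay at -0.83, -1.24, 0.26 and -0.54 in Il13-deficient mice and at 1.12, 0.74, 1.00 and 0.39 in Rag2-only mice. It fell by 1.40 on the log2 scale (SE 0.29, adjusted p = 0.0426). Mpeg1, which encodes a pore-forming protein of phagocytes, fell by 1.28 (SE 0.25, adjusted p = 0.0410), and its difference was -0.80 without mice 6229 and 6234.

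Of 24 listed macrophage and monocyte genes 22 were tested, and 2 passed, Marco and Adgre1, both lower, beside 0.284% of all genes called. At an unadjusted p under 0.05 there were 16 of the 22, all lower, beside 20.3% of all genes in either direction. Their median difference was -0.85, beside -0.04 over all genes, and -0.49 without mice 6229 and 6234. In bulk skin, fewer cells of a type and less RNA per cell cannot be told apart. Ccr2, the receptor for Ccl2 on monocytes, had a value in 1 of 4 Il13-deficient mice (-0.08 in mouse 6234) and lay at 2.92, 3.71, 4.50 and 2.23 in Rag2-only mice, and it was too sparse for the test.

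Interferon-inducible genes were also among the lower calls. Xaf1, an interferon-induced regulator of cell death, lay at -3.59, -1.47, -2.78 and -1.12 in Il13-deficient mice, against 0.66, -0.32, -0.11 and 0.62 in Rag2-only mice. All 4 Il13-deficient mice lay below every Rag2-only mouse, and the difference was -2.45 (SE 0.44, adjusted p = 0.0319). Gbp2, a guanylate-binding GTPase, lay at -0.18, -0.27, 1.02 and 0.91 in Il13-deficient mice and at 1.94, 1.74, 1.53 and 1.40 in Rag2-only mice. Its groups did not overlap, with mice 6229 and 6234 lowest (difference -1.28, SE 0.24, adjusted p = 0.0334). Psmb9, a subunit of the immunoproteasome, showed the same order, at 0.05, -0.65, 1.31 and 1.22 in Il13-deficient mice, against 1.87, 1.95, 1.93 and 1.60 in Rag2-only mice (difference -1.35, SE 0.28, adjusted p = 0.0453). Without mice 6229 and 6234 the differences were -0.69 for Gbp2 and -0.57 for Psmb9.

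Other interferon-inducible genes outside the list also fell, among them the GTPases Iigp1 (-1.82), Gbp8 (-1.76) and Tgtp1 (-1.30) and Uba7 (-1.17), the activating enzyme for the ubiquitin-like protein Isg15. Without mice 6229 and 6234 these differences were -1.04 for Iigp1, -1.25 for Gbp8, -0.67 for Tgtp1 and -0.66 for Uba7. Of 32 listed interferon response genes 30 were tested, and 3 passed, all lower, beside 0.284% of all genes called. At an unadjusted p under 0.05 there were 23 of the 30, all lower, beside 20.3% of all genes in either direction. Their median difference was -1.0, and it was -0.41 without mice 6229 and 6234. In that fit 5 of 29 lay lower at an unadjusted p under 0.05, beside 3.62% of all genes in either direction. The list's median relative to the Rag2-only mean was -1.45 and -1.63 in mice 6229 and 6234, -0.41 and -0.46 in mice 6225 and 6230, and -0.24 to 0.31 in Rag2-only mice.

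Among the remaining lower calls were genes of metabolism and of other cell types. Pdk4, a kinase that restrains glucose oxidation, fell by 1.89 (SE 0.38, adjusted p = 0.0418). It lay at 5.20, 3.94, 5.90 and 6.65 in Il13-deficient mice and at 7.80, 6.97, 7.13 and 7.37 in Rag2-only mice, and the difference was -1.04 without mice 6229 and 6234. Pygl, a glycogen phosphorylase, fell by 1.07 (SE 0.18, adjusted p = 0.0249). Pygl lay at 2.61, 2.63, 3.09 and 2.73 in Il13-deficient mice and at 3.99, 3.78, 3.89 and 3.68 in Rag2-only mice, so all 4 Il13-deficient mice lay at one level below the others. Mcpt4, a chymase of connective tissue mast cells, fell by 0.99 (SE 0.19, adjusted p = 0.0334). It was the 1 called gene among the 8 tested of 13 mast cell genes, beside 0.284% of all genes called. At an unadjusted p under 0.05, 4 of the 8 lay lower and 1 higher, beside 20.3% of all genes in either direction. The median difference of the list was -0.64. Pyy, a peptide hormone best known from the gut, had the most negative difference (-2.60, SE 0.56, adjusted p = 0.0496). With exact 0 kept as a value it was -2.11 and did not pass. With dim values shared by at least 30 probes taken as missing, Pyy had too few values for the test.

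Genes of growing hair were among those higher in Il13-deficient skin, to a different extent in different mice. Krtap5-1, a keratin-associated protein of the hair shaft, lay at 5.67, 6.08, 2.51 and 2.25 in Il13-deficient mice 6229, 6234, 6225 and 6230, against -0.31, -0.48, 0.32 and -0.80 in Rag2-only mice. The groups did not overlap, and mice 6229 and 6234 were highest by a wide gap. The difference was 4.45 (SE 0.90, adjusted p = 0.0418), a 21.8-fold difference, and 2.70 without these 2 mice. Krt87, a hair keratin, rose by 3.82 (SE 0.81, adjusted p = 0.0490), at 3.97, 4.65, 1.76 and 2.89 in Il13-deficient mice and -1.42, -0.32, 0.60 and -0.86 in Rag2-only mice. Mycn, a transcription factor of dividing matrix cells, rose by 3.67 (SE 0.68, adjusted p = 0.0373). It lay at 4.42, 5.58, 0.37 and 3.07 in Il13-deficient mice and at -0.69, -0.78, -0.53 and 0.76 in Rag2-only mice, so mouse 6225 lay below mouse 6153. Mouse 6153 has this same value, 0.761, for other genes such as Gprc5d and Wnt11, so it may be a repeated value. The difference was 2.03 without mice 6229 and 6234.

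Fbp1 and Slc45a2 were also highest in mice 6229 and 6234. Fbp1, an enzyme of glucose synthesis, lay at 6.26, 7.01, 1.92 and 5.12 in Il13-deficient mice and at 1.53, 0.95, 1.16 and 0.80 in Rag2-only mice (difference 3.97, SE 0.78, adjusted p = 0.0410). Slc45a2, a transporter of pigment granules, was highest in mice 6229 and 6234 (3.76 and 4.49) and lay at 1.92 and 2.24 in mice 6225 and 6230, against 0.23, 0.69 and 0.40 in the 3 Rag2-only mice with a value. Its difference was 2.66 (SE 0.47, adjusted p = 0.0334). It was the 1 called gene of 9 tested pigment cell genes, beside 0.284% of all genes called, and the median difference of the list was 1.60. Lmnb1, a lamin of the nuclear envelope, rose by 1.47 (SE 0.29, adjusted p = 0.0418), and Slc39a10, a zinc importer, by 1.84 (SE 0.39, adjusted p = 0.0453). Slc39a10 lay at 2.36, 2.52, -0.19 and 0.45 in Il13-deficient mice and at -0.84 to -0.34 in Rag2-only mice, and its difference was 0.69 without mice 6229 and 6234. Without these 2 mice the differences were 2.41 for Fbp1 and 1.64 for Slc45a2.

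Chil1, a secreted chitinase-like protein, did not set mice 6229 and 6234 apart. It lay at 2.85, 4.01, 3.95 and 4.22 in Il13-deficient mice and at 1.77, 2.04, 2.02 and 0.76 in Rag2-only mice, with no overlap and with mouse 6229 lowest of its group. The lowest value, 0.761 in mouse 6153, is also this mouse's value for Mycn, Gprc5d and Wnt11. It may thus be a repeated value that enlarges the difference. Chil1 rose by 2.11 (SE 0.36, adjusted p = 0.0249), and by 2.44 without mice 6229 and 6234. In mice given B10.D2 cells it lay at 3.62 to 3.93 in Il13-deficient and at 3.43 to 4.10 in Rag2-only recipients.

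The hair genes fell into sets by which mice carried them. Of the 4 inner root sheath keratins with a value, 3 were high in all 4 Il13-deficient mice, as were some early shaft genes. Krt26, the other one, lay at 5.89 and 7.58 in mice 6229 and 6234 and had no value in mice 6225 and 6230 or in any Rag2-only mouse given balb/c cells. Krt25 lay at 6.10, 6.47, 5.52 and 6.89 in these mice and had no value in any Rag2-only mouse. Krt71, another inner root sheath keratin, lay at 6.07, 7.30, 6.05 and 7.28 in Il13-deficient mice, and at 2.34, 4.59 and 1.42 in 3 Rag2-only mice (difference 3.89, SE 1.71, adjusted p = 0.214). Krt27 showed the same order of groups, with 5.46 to 6.36 in 4 Il13-deficient mice and 1.62 to 2.95 in 3 Rag2-only mice (difference 3.71, adjusted p = 0.0945). These keratins did not pass the test, and the missing values in Rag2-only mice limit it.

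Prr9, a proline-rich protein of the follicle, lay at 6.64, 8.65, 5.22 and 7.10 in Il13-deficient mice, against 0.23, 0.52 and 1.80 in 3 Rag2-only mice (difference 6.05, SE 1.38, adjusted p = 0.0658). Krt35, a keratin of the early hair shaft, lay at 4.35, 4.24, 4.92 and 5.08 in Il13-deficient mice and at 0.45 and 0.07 in 2 Rag2-only mice (difference 4.39, SE 0.89, adjusted p = 0.0535). For Krt35 mice 6225 and 6230 lay above mice 6229 and 6234, and for Prr9 mouse 6230 lay above mouse 6229. Tchh, which encodes trichohyalin of the inner root sheath, lay at 8.25, 10.38, 6.94 and 9.31 in Il13-deficient mice and at 4.71 and 3.62 in 2 Rag2-only mice.

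Keratin-associated proteins of the forming shaft were high in mice 6229 and 6234 above all. Of 42 such genes with a value in any mouse of the series, 42 had one in mouse 6229 and 40 in mouse 6234, 28 and 23 in mice 6225 and 6230, and 14 to 29 in Rag2-only mice. Of all 19532 named genes, 19166 and 14905 had a value in mice 6229 and 6234. The number was 16906 and 16711 in mice 6225 and 6230, and 14573 to 18119 in Rag2-only mice. Of the 33 that both 6229 and 6234 and at least 1 of the other 6 mice measured, all 33 were higher in both 6229 and 6234 than in every other mouse with a value. Few other mice had a value for many of them: of the 40 measured in both, 20 had one in at most 1 Rag2-only mouse. Of the 9 measured in all 8 mice, 8 lay at least 1 log2 unit above the other 6 mice, beside 1.05% of all genes. The 2 mice were set apart by hair genes, so these counts are a description. Krtap3-1 lay at 3.25 and 4.70 in mice 6229 and 6234, at -0.13 and 0.08 in mice 6225 and 6230, and at -0.34 to 0.02 in Rag2-only mice. Krtap19-1 lay at 4.94 and 6.06, at 0.72 and 0.13, and at 0.15 to 0.69 in the same order of mice. These genes form families of similar sequence, and whether probes tell the members apart was not tested. Only 13 of the 42 had enough values for the test, and 1 passed, Krtap5-1, beside 0.284% of all genes called.

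**Figure D3:**
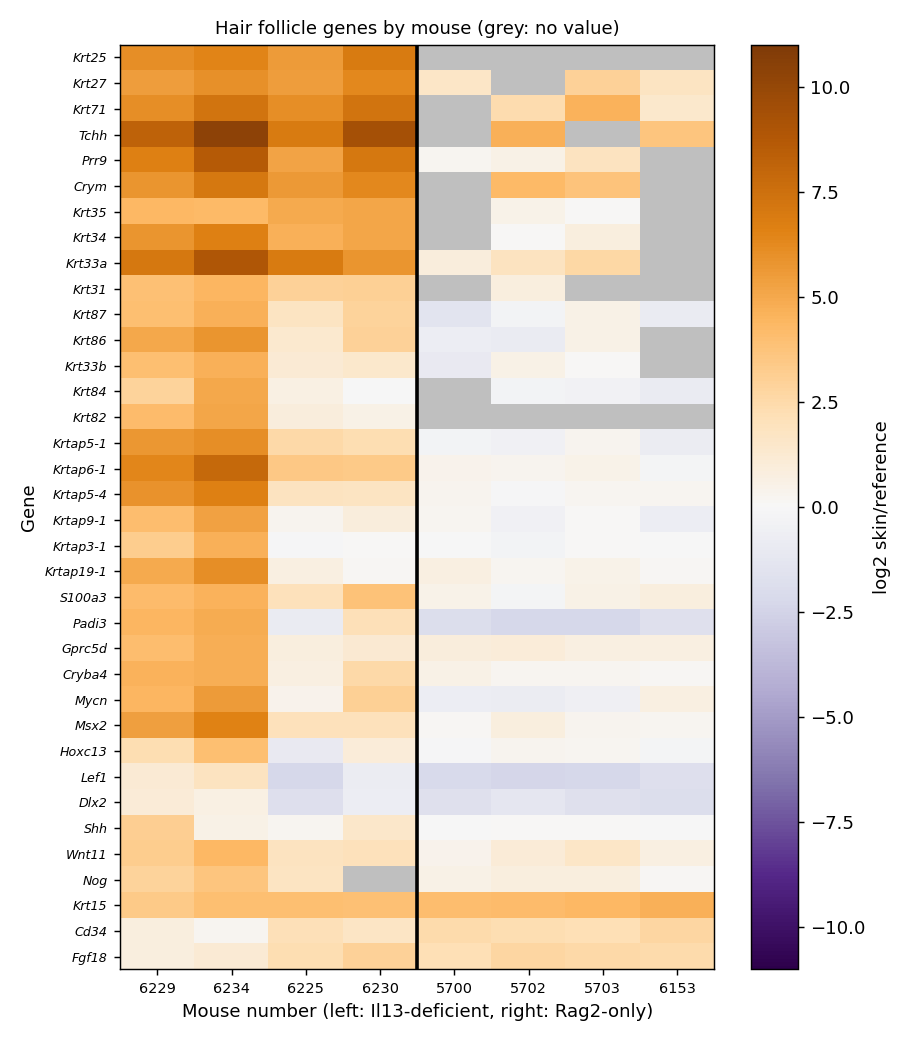
Rows are hair follicle genes and columns are the 8 mice, Il13-deficient at left and Rag2-only at right of the black line. Colour gives log2 skin/reference, and grey marks a missing value. Krt25 to Krt31 are high in all 4 Il13-deficient mice, Krtap3-1 and Krtap19-1 are high in mice 6229 and 6234, and the bulge gene Krt15 near the bottom lies at 3.43 to 3.97 in Il13-deficient mice and 4.10 to 4.66 in Rag2-only mice.

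The promoters of 3 hair genes are shown because they stand for these patterns: Krt71, high in all 4 Il13-deficient mice, Krtap5-1, the called gene, and Krtap3-1, high in mice 6229 and 6234. Sequences are from RefSeq (GRCm38.p6), cover 250 bases before to 50 after the annotated start, and are written 5′ to 3′ on the gene's strand. Capitals mark TATAAA, the core letters of the promoter element bound by the TATA-binding protein, searched on both strands. Krt71 is at chr15:101743048-101743347, Krtap5-1 at chr7:142297085-142297384 and Krtap3-1 at chr11:99566581-99566880, each on the minus strand.
Krt71: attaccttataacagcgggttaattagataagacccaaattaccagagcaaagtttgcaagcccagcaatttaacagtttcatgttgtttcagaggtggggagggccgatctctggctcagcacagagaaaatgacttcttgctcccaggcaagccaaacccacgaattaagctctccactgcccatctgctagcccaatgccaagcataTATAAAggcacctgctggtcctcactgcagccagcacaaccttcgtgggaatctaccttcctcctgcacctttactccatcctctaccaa
Krtap5-1: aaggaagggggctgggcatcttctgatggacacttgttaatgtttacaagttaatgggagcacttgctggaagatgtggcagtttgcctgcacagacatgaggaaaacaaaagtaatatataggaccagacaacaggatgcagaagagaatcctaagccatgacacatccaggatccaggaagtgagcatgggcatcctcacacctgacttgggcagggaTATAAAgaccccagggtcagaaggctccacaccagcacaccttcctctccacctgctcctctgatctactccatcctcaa
Krtap3-1: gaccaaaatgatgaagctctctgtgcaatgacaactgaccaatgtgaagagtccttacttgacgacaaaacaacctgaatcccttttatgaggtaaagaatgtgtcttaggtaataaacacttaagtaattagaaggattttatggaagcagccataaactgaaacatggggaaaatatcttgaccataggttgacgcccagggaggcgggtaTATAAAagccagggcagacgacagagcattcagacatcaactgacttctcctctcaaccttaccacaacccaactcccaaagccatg
The match begins 40, 30 and 37 bases before the annotated start. TATAAA was found in 40 of 51 promoters of inner root sheath keratins, hair shaft keratins and keratin-associated proteins (78.4%), beside 3827 of 27025 of all genes (14.2%). Among the genes that set mice 6229 and 6234 apart upward it was found in 15 of 103 (14.6%), near the share of all genes. All 3 promoters shown hold it, so it did not separate the patterns, and a match describes these letters and not a working site.

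Over all 12793 genes measured in the 8 mice, 134 (1.05%) were at least 1 log2 unit higher in both 6229 and 6234 than in each of the other 6 mice, and 151 (1.18%) were at least 1 lower. These values chose the genes and are given as a description. The median gap of the upward genes was 1.37 and the widest 4.22, for Krtap19-1. After it came Krtap5-4 (4.02), Msx2 (3.41), Gm11938 (3.28), Krtap3-1, Krtap5-1, Krtap9-1, Ctse, Krtap6-1, Gprc5d and Procr (2.71). Msx2, a homeobox factor needed for shaft differentiation, lay at 5.41 and 6.60 in mice 6229 and 6234, at 1.99 and 2.00 in mice 6225 and 6230, and at 0.16 to 0.83 in Rag2-only mice. Of the 13 hair matrix transcription factors measured in all 8 mice, 6 split upward.

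Mouse 6230 lay between the extremes. Among the 134 upward genes it exceeded every Rag2-only mouse for 83 (61.9%), beside 18.7% of all 12793 genes, and mouse 6225 did so for 29 (21.6%), beside 17.3%. Padi3, an enzyme that modifies trichohyalin, lay at 4.45 and 4.85 in mice 6229 and 6234, at 2.14 in mouse 6230 and -0.89 in mouse 6225, and at -2.28 to -1.70 in Rag2-only mice. Lef1, a transcription factor of Wnt signalling in the matrix, lay at 1.17 and 1.82, then at -0.84 in mouse 6230 and -2.29 in mouse 6225, and at -2.32 to -1.78 in Rag2-only mice. Shh, a matrix signal for hair growth, broke this order, at 3.17 in mouse 6229, 0.57 in 6234, 1.48 in 6230 and 0.20 in 6225, against -0.04 to 0.07 in Rag2-only mice. Cd4, best known as a T cell coreceptor, was also among the upward genes, at 3.01 and 3.72 in mice 6229 and 6234 and 0.07 to 0.36 in the other 6, whereas 0 of the other 10 T cell genes measured in all 8 mice were.

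Genes that were lower in mice 6229 and 6234 had gaps up to 2.12. The widest was that of Clca3a2, a chloride channel regulator, at 3.65 and 3.62 in mice 6229 and 6234, 6.13 and 5.94 in mice 6225 and 6230, and 5.76 to 6.43 in Rag2-only mice. Ccn2, a matrix growth factor linked to fibrosis, lay at 0.59 and -0.34, at 2.80 and 2.64, and at 2.65 to 2.82 in the same order of mice. Mrln, a muscle calcium regulator, and Klhl40, a protein of muscle sarcomeres, were also among the 10 widest. Of lists, 8 of 28 interferon response genes and 4 of 24 muscle genes measured in all 8 mice split downward.

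Lists of cell division, muscle, antigen presentation, complement, fat and chemokine genes had median differences that shrank without mice 6229 and 6234. Of 28 cell division genes 0 passed the test in limma, but 24 lay higher at an unadjusted p under 0.05, which 20.3% of all genes had in either direction. The list had a median difference of 0.90 that became 0.32 without these 2 mice. Their median relative to Rag2-only mice was 1.55 and 1.50 in mice 6229 and 6234, -0.26 and 0.76 in mice 6225 and 6230, and -0.27 to 0.41 in Rag2-only mice. Skeletal muscle genes had 21 of 26 lower at an unadjusted p under 0.05 (median -0.88, and -0.41 without the 2 mice), and MHC class II genes 6 of 8 (median -0.96 and -0.27). Complement genes had 10 of 12 lower (median -0.80 and -0.40), adipocyte genes 10 of 17 (-0.63 and -0.37), and chemokine genes 14 of 28 lower and 1 higher (-0.68 and -0.49). None of the members of these 5 lists passed the adjusted test. After quantile normalization the medians of these lists were -0.49, -0.85, -0.68, -0.43 and -0.63, in the order given. Collagen and elastic matrix genes had a median of -0.25, with 2 higher and 5 lower of 23, and 0 passed.

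Genes of resting follicles and of dermal papilla, the follicle's signalling centre, did not pass the test. Of 13 hair stem cell and rest phase genes 0 passed, with 1 higher and 2 lower at an unadjusted p under 0.05 and a median of -0.14. Krt15, a marker of bulge stem cells, lay at 3.43 to 3.97 in Il13-deficient and 4.10 to 4.66 in Rag2-only mice (difference -0.50, adjusted p = 0.310). Of 7 tested dermal papilla genes 0 had an unadjusted p under 0.05.

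**Figure D4:**
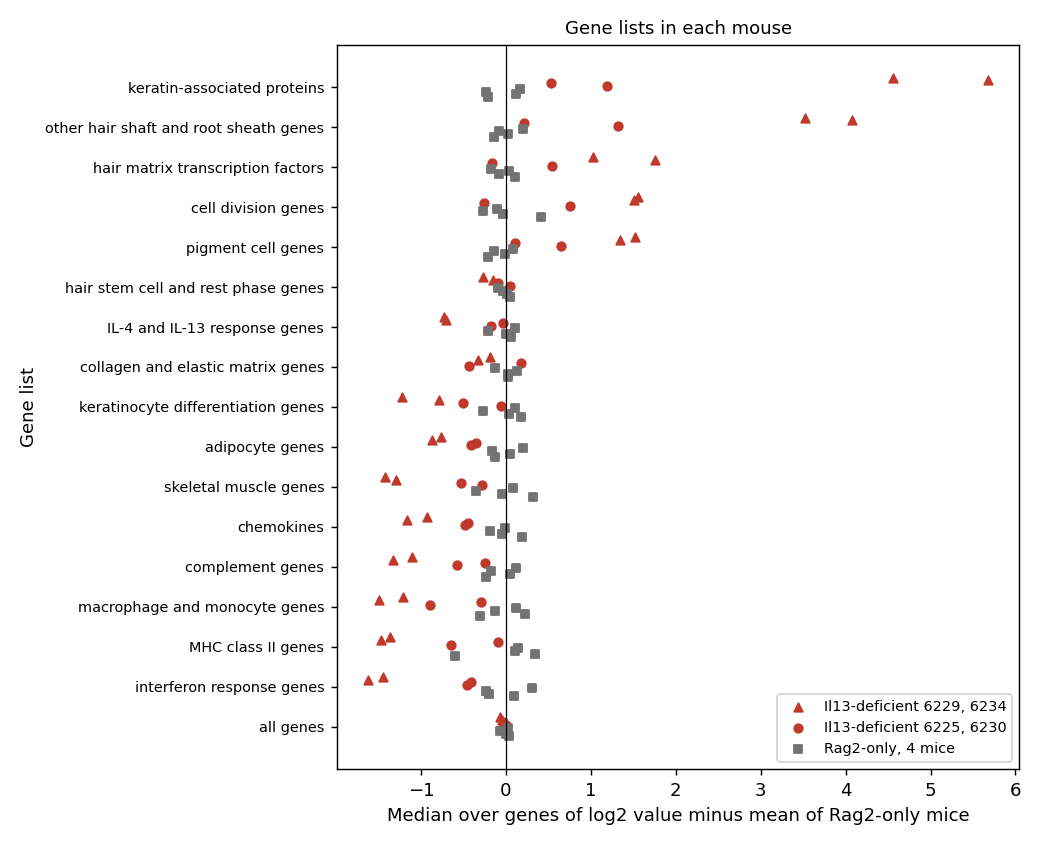
Each point is 1 mouse and gives the median over a gene list of its log2 value minus the mean of the Rag2-only mice. Triangles are mice 6229 and 6234, circles mice 6225 and 6230, and squares the Rag2-only mice. Keratin-associated proteins lie at 4.56 and 5.68 in mice 6229 and 6234, and interferon genes at -1.45 and -1.63.

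The genes named in the study's title, Il13 and Ccl2, did not pass. Il13 lay at -0.42, 0.39, 0.23 and -0.02 in Il13-deficient mice and at 0.23, 0.06, 0.36 and 0.10 in Rag2-only mice, and the groups overlapped (difference -0.15, SE 0.33, adjusted p = 0.851). Without spot intensities, ratios close to 0 leave unknown whether any Il13 signal was present, and whether the probe lies in the deleted part is not known. With B10.D2 cells Il13 lay at -0.91 ± 0.58 (SD, n = 3, with no value in the other mouse) in Il13-deficient and 0.32 ± 0.56 (SD, n = 5) in Rag2-only mice. The groups overlapped, and the difference of -1.22 (SE 0.34) did not pass (limma, adjusted p = 0.408). Ccl2 lay at -3.32, -4.25, -4.15 and -3.55 in Il13-deficient mice and at -3.10, -3.26, -3.35 and -3.15 in Rag2-only mice (difference -0.60, SE 0.32, adjusted p = 0.290). Il4ra differed by -0.86 (SE 0.40, adjusted p = 0.233) and Rag2 by -0.01. Of 26 listed IL-4 and IL-13 response genes 20 were tested and 0 passed. At an unadjusted p under 0.05, 4 of the 20 lay lower and 0 higher, near the 20.3% of all genes that did so in either direction, with a median of -0.53 and, without mice 6229 and 6234, of -0.07.

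Genes flanking a targeted locus can keep the strain of the original stem cells. Of the 25 nearest tested genes on each side of Il13 on chromosome 11, 1 of 50 passed (2.00%, beside 0.284% of all genes), Anxa6, which encodes an annexin and fell by 1.26 (SE 0.24, adjusted p = 0.0334). The size for Anxa6 depended on the probe and missing-value rules. It was -2.35 with 1 probe per gene. With dim values shared by at least 30 probes taken as missing it was -0.23 and did not pass. At an unadjusted p under 0.05 there were 13 of 50 (26.0%), beside 20.3% of all genes, and the median difference was -0.13. Irf1, an interferon-induced transcription factor and the second tested gene from Il13 on one side, was one of these 13 (difference -0.81, adjusted p = 0.0887).

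In mice given B10.D2 cells, 4 Il13-deficient and 5 Rag2-only recipients were compared, and limma called 0 of 14783 genes (0%), with 850 (5.75%) at an unadjusted p under 0.05. Of the 42 genes called with balb/c cells, 26 had the same sign there. At an unadjusted p under 0.05, 5 did with the same sign, Xaf1, Marco, Nme6, Anxa6 and Slco4a1, and Pih1d2 with the opposite sign. Xaf1 lay at 0.85 ± 0.82 (SD, n = 4) in Il13-deficient and 2.55 ± 0.40 (SD, n = 5) in Rag2-only mice given B10.D2 cells (difference -1.70, adjusted p = 0.300). Marco lay at 3.22 ± 0.72 (SD, n = 4) and 4.75 ± 0.62 (SD, n = 5) in the same groups (difference -1.53, adjusted p = 0.412). Both differences had the sign found with balb/c cells and did not pass.

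High hair genes were not limited to Il13-deficient mice. Krt34, a hair shaft keratin, lay at 5.80, 6.65, 4.70 and 5.10 in Il13-deficient mice given balb/c cells, and at 5.48 and 5.08 in Rag2-only mice 5701 and 6152 given B10.D2 cells. Krtap5-1 lay at 4.49 and 2.54 in these 2 mice, Prr9 at 7.13 and 4.85. In Il13-deficient mice given B10.D2 cells Krtap5-1 lay between -0.74 and 0.28. Krt71 lay at 5.40 in mouse 6232 of this group, at 2.19 in 6226 and -0.23 in 6224, and had no value in 6223. It lay at 6.31 and 6.26 in Rag2-only mice 5701 and 6152, and at 5.75 in Il4ra-deficient mouse 4534, also given B10.D2 cells. Over the 9 tested hair shaft keratins the median difference between Il13-deficient and Rag2-only mice was 2.98 with balb/c and -1.11 with B10.D2 cells.

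The difference between genotypes was itself tested between donors. Of 14783 genes, 2 passed (0.0135%), Gpat3 and Tspan12, named because they are the only ones, with 2373 (16.1%) at an unadjusted p under 0.05. Gpat3, an enzyme of triglyceride synthesis, lay at 1.41 ± 0.12 in Il13-deficient and 2.32 ± 0.43 in Rag2-only mice given balb/c cells (SD, n = 4 each), and at 1.72 ± 0.24 (n = 4) and 0.90 ± 0.34 (n = 5) in those given B10.D2 cells. The difference of differences was 1.72 (adjusted p = 0.0417). For Tspan12, a tetraspanin, it was 1.78 (adjusted p = 0.0417), from differences of -0.67 with balb/c and 1.12 with B10.D2 cells. Hair genes did not pass in this test; for Krtap5-1 the difference of differences was -6.00 (adjusted p = 0.0752). Both calls ended without mice 6229 and 6234, when 0 genes passed.

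Il4ra-deficient recipients given balb/c cells (3 mice) share the 4 Rag2-only mice with the main comparison, so values are set side by side only. Against these Rag2-only mice limma called 0 genes (0%), with 430 (2.91%) at an unadjusted p under 0.05. Marco differed by -2.46 in Il13-deficient and by -1.95 in Il4ra-deficient mice, Xaf1 by -2.45 and -0.49, Chil1 by 2.11 and 0.55, and Krtap5-1 by 4.45 and -0.19.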

How the data were processed

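Each deposited value is a log2 ratio between both channels of an array, which the authors had normalized. Cy3 labelled the skin RNA and Cy5 the reference, per the labels, after low-input amplification. How the arrays were scanned, corrected, normalized and filtered is not given in the sources used here. Deposited ratios put the reference on top, and the sign was therefore turned. That direction rests on the dyes and on the values: after turning, 16 of 16 keratinocyte differentiation genes and 0 of 28 cell division genes had a median above 0 over the 8 mice. Base 2 was assumed for the logarithm.

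An exact 0 was treated as missing, which is a reading of the values. It made up 2.42% to 34.0% of probes on the 11 arrays. Values shared by at least 30 probes of an array, called dim here, made up 40.9% to 50.3% of the values other than exact 0. They were found by their repetition alone, and that they come from dim spots is an assumption. Precision is limited by how many arrays there are. The platform annotation gave 1 gene name to 32664 of 41174 probes, several to 45 and none to 8465. Arrays of a mouse were averaged, as they are technical repeats. Probes of a gene with the fewest missing mice, and the same mice missing, were averaged. Of 19532 named genes, the 14783 measured in at least 2 mice of each of the 6 groups were tested.

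Group means of all 24 mice were fitted with lmFit and eBayes (limma 3.58.1, R 4.3.3), which share 1 estimate of the spread. Tests were two-sided, with p adjusted by the Benjamini-Hochberg method over all tested genes and a threshold of 0.05. Mice are separate animals by number, but nothing says whether they came from separate litters or experiments. Of called genes, the text names the 15 highest and 15 lowest without overlap, up to 4 called members of each of 39 gene lists, all listed hair genes as candidates, the widest gaps of mice 6229 and 6234, and Il13, Il4ra, Rag2 and Ccl2; of these, the ones that carry a result are given. Members, mice and lists were chosen with earlier results of these data known. Alternatives were other normalization, missing-value and probe rules, other model settings and each mouse left out.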

Additional observations from a re-analysis of the deposited data

Results flagged for a closer look

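Of 117 groups of 4 mice checked for 1 mouse far from the rest among the genes named above, 3 held one by Dixon's criterion, and chance alone gives such a mouse in about 1 group in 20. Krt15 was lowest in Il13-deficient mouse 6229 (3.43), with the other 3 at 3.90 to 3.97. Among Rag2-only mice, Mycn was highest in mouse 6153 (0.76) and Ccn2 was lowest there (2.65), and this mouse alone of its group carries a number of the 61 series. The same value, 0.761, stands for Chil1, Gprc5d and Wnt11 in mouse 6153. It may thus be a repeated value and not a separate measurement of Mycn.

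The difference between Il13-deficient and Rag2-only recipients differed between donors by a test of that difference for 2 genes, by 1.72 for Gpat3 and by 1.78 for Tspan12.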

How the results depend on the processing

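The calls in mice given balb/c cells were 19 higher and 23 lower. They became 3 and 1 with only the 2 groups fitted, 3 and 2 after quantile normalization, 34 and 15 with exact 0 kept as a value, 47 and 76 with dim repeated values as missing, 29 and 37 over genes measured in all 8 mice, 10 and 14 with 1 array per mouse, 13 and 13 with a robust trended eBayes fit, and 15 and 23 with 1 probe per gene. Without mice 6229 and 6234 they were 3 and 0. With single mice left out they ran from 0 to 830 higher and from 0 to 992 lower. Restricting to genes measured in all 8 mice kept all 39 calls that could be tested, quantile normalization kept 5 of 42, and fitting only the 2 groups kept 1. No called gene changed sign under any of these settings in which it could be tested. With dim repeated values as missing, 31 of the 42 could be. The causes were not tested.

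With B10.D2 cells, 0 genes were called also when only the 4 groups of these genotypes were fitted. For the difference between donors the 2 calls became 0 with only 4 groups fitted and 0 without mice 6229 and 6234. With single balb/c recipients left out, a setting chosen after seeing the data, they ran from 0 to 386 higher and from 0 to 463 lower.

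The 134 upward genes of mice 6229 and 6234 became 73 with dim repeated values as missing, and the 151 downward genes became 62 after quantile normalization. Of 34 list medians, each over at least 5 tested genes, 0 changed sign after quantile normalization. Some shrank, such as those of skeletal muscle (-0.88 to -0.49) and keratinocyte differentiation genes (-0.63 to -0.24). Others grew, such as that of hair shaft keratins (2.98 to 3.14), and the largest move was 0.40. Without mice 6229 and 6234, 31 of the 34 medians became smaller and 5 changed sign. The 5 were those of the circadian (0.17), rest phase (0.06), immediate-early (0.02), sebaceous (0.01) and stressed keratinocyte lists (-0.09). No paired analysis was possible because replicate numbers are mouse numbers, which the groups do not share.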
